A study of Drosophila melanogaster with 2 samples.

Results

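Intergenic distal peaks of tHMG1 on the autosomes of Drosophila melanogaster are the peaks whose summit lay outside every annotated gene and more than 500 bp from every annotated transcription start site (TSS). They numbered 279 of the 3972 autosomal peaks that passed the irreproducible discovery rate (IDR) procedure, or 7.02% (exact 95% binomial interval 6.25 to 7.86%), and 279 of all 4574 peaks. The other autosomal peaks comprised 2364 with a summit within 500 bp of a TSS, called promoter peaks here, and 1329 within a gene away from its TSSs, called gene body peaks. The data are chromatin immunoprecipitation followed by sequencing (ChIP-seq) with an antibody against GFP, on whole adult males of a transgenic line stably expressing CG7045 (tHMG1) fused at its C-terminus to GFP. The age of the flies is given as unknown. The 2 biological replicates, numbered 1 and 3, form 1 group, so no contrast between conditions exists and the comparisons are between kinds of peak and between peaks and the sequence around them. The material was the whole organism, so binding in a few cells and weak binding in many cells cannot be told apart, no cell type can be checked against its markers, and binding by the tagged protein need not equal that of the untagged one.

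HMG-box proteins bind the minor groove of DNA through a short folded domain and bend it sharply. Some, such as the SRY, SOX and TCF factors, prefer particular A+T-rich sequences, and others bind with little sequence preference and act as structural components of chromatin. tHMG1 and its neighbour tHMG2 belong to the latter kind and are named for their expression in the testis, where HMG-box proteins are present while histones are exchanged during spermatid maturation. In Drosophila, sequence between genes and away from TSSs can hold enhancers and insulators, and also the starts of unannotated transcripts, and none of these can be told from a peak alone.

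Some of the strongest peaks, all on 2L or 3R, are shown first, because the later descriptions of base composition and motifs rest on such windows. The peak beside tHMG2, the gene of the related protein, is shown with them. Each holds the summit and 100 bases on either side, on the plus strand of the release 6 assembly (dm6), in lower case, with capitals for every match, on either strand, to 1 of 14 short motifs searched. The peak between Sol1 and Cyp9f2 and that beside lncRNA:CR45054 each hold AACAAT, an HMG-box site of the SRY type, and the other peak upstream of Alp13 holds TATCGATA, the DNA replication-related element (DRE). The stretch near CG31668 holds GAGAGAG in reverse complement, where the capitals of GCCATTT (the Pho site) and of TATAAA in reverse complement overlap, and the stretch near jp holds a run of A and AGGTGGCG, a core of the CTCF site, in reverse complement. The stretch upstream of sp3 holds no match, and the second strongest and the eighth strongest peak are not printed. A match describes these letters and does not show a bound site.
Peak between Sol1 and Cyp9f2, chr3R:12403023-12403223: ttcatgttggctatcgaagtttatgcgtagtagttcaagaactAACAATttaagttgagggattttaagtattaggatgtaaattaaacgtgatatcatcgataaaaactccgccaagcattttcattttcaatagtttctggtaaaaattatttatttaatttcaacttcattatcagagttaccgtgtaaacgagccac
Peak between COX7AL2 and CG31668, chr2L:2202329-2202529: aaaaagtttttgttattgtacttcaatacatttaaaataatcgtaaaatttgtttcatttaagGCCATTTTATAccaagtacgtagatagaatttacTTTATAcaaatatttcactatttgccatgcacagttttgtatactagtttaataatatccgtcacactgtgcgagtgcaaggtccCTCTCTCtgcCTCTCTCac
Peak between Alp13 and lncRNA:CR45054, chr3R:10079653-10079853: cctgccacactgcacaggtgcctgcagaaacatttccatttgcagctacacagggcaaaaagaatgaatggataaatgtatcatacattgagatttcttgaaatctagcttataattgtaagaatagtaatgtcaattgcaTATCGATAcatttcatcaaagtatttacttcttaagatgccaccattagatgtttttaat
Peak between Alp13 and lncRNA:CR45054, chr3R:10082579-10082779: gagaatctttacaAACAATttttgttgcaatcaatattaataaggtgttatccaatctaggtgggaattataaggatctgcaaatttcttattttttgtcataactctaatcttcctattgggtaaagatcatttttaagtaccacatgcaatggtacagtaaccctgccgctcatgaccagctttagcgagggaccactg
Peak between jp and lncRNA:CR44149, chr2L:9567414-9567614: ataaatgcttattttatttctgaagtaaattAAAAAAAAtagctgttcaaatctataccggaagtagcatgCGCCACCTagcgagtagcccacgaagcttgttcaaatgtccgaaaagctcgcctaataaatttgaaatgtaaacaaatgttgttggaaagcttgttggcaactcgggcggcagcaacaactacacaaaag
Peak between tRNA:Phe-GAA-1-7 and tal-AA, chr3R:13800477-13800677: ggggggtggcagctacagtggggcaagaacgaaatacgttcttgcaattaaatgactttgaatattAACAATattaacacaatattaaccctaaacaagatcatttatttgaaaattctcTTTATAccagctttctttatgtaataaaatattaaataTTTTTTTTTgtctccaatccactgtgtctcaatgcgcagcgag
Peak between C15 and sp3, chr3R:21520280-21520480: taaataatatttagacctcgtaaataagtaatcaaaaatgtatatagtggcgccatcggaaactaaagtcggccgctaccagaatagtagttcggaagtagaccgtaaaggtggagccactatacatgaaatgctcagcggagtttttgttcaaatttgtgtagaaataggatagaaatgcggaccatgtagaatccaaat
Peak between tHMG2 and Octbeta1R, chr3R:22494674-22494874: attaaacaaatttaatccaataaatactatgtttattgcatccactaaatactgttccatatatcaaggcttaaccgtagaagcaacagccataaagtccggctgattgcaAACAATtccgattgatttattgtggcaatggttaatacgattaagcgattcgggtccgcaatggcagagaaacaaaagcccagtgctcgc

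The signal of the distal peaks lay within the range of the other peaks and was close to theirs at the median. The signal is the peak caller's own enrichment value, as deposited, and serves to rank peaks within a list. It had a median of 146 in the pooled replicates (quartiles 108 and 224, range 90.5 to 1784), against 152 for promoter peaks, 137 for gene body peaks and 146 for all autosomal peaks. The highest signal was 2864 among promoter peaks and 2648 among gene body peaks. Of the 213 autosomal peaks with a signal of at least 500, 10 were distal (4.69%, exact 95% interval 2.27 to 8.46%), an interval that includes the 7.02% of all autosomal peaks. When the autosomal peaks were split into 5 classes of equal size from strongest to weakest, 6.30, 7.42, 7.05, 6.42 and 7.93% of them were distal, so the share did not follow the signal in one direction. Of the 10 strongest peaks in the genome 1 was distal, and of the 100 strongest 5 were.

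In the replicates' own lists the distal peaks had a median signal of 88.9 in replicate 1 (range 31.7 to 1164) and 64.5 in replicate 3 (range 25.1 to 619). Signals were not scaled between the lists, and the value was higher in replicate 1 for 232 of the 279 peaks, with a median ratio of 1.38. The ratio ran from 0.469 at a peak beyond the 3′ end of shg, which encodes E-cadherin, to 4.27 at a peak beside Hr38, a nuclear receptor. Across the 279 peaks the Spearman correlation between replicates was 0.74, against 0.71 over 3958 autosomal peaks, a description across peaks of the same 2 libraries. Of the distal peaks, 253 (90.7%) overlapped one of the 4574 strongest peaks of replicate 1, where 90.4% of all IDR peaks did, and 237 (84.9%) one of replicate 3, where 85.2% did. Both overlaps were present for 216 (77.4%, exact 95% interval 72.1 to 82.2%), against 76.6% of all IDR peaks, so the support of the distal peaks by the replicates was near that of the whole list. A peak of one replicate can span more than one summit, and 22 distal peaks shared such a replicate peak, and hence a replicate value, with another distal peak. This count covers sharing among distal peaks only. A further 9 distal peaks, not counted apart from these, overlapped a promoter peak, whose replicate value they could carry.

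**Figure D1:**
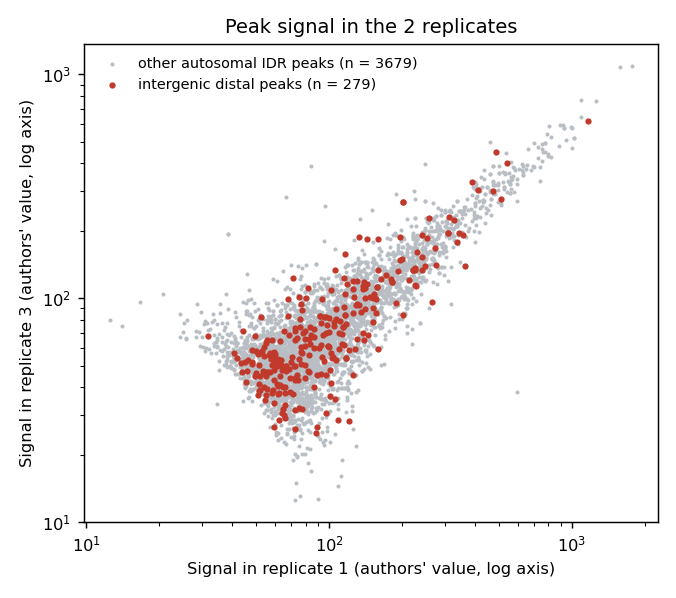
Signal of each autosomal IDR peak in replicate 1 (x axis) and replicate 3 (y axis), both on log axes and in the authors' own units, with the 279 intergenic distal peaks in red and the other autosomal peaks with a value in both lists in grey. The distal peaks lie within the cloud of the others, up to 1164 in replicate 1 and 619 in replicate 3.

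The strongest distal peak had its summit at 3R 12403123, in a gap of 437 bp between the ends of Sol1 and of Cyp9f2, a cytochrome P450, which are transcribed towards each other. Its signal was 1784 in the pooled replicates, 1164 in replicate 1 and 619 in replicate 3, and the nearest TSS, 1284 bp away, was that of DNAlig3, which encodes DNA ligase 3. It ranked sixth of all IDR peaks and first among the distal peaks in both replicates. The second, at 2R 13035305, lay 27394 bp beyond the end of Su(z)2, a Polycomb group gene, in the 36783 bp that separate it from CG13323. Its signal was 945, with 539 in replicate 1 and 401 in replicate 3. Unlike the first it was far from any start, 11951 bp from that of CG13323.

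A gap of 5808 bp on 2L between COX7AL2, named as a cytochrome c oxidase subunit 7A-like gene, and CG31668 held the third and the eighth strongest distal peaks. The third, at 2202429, had a signal of 931, with 487 in replicate 1 and 451 in replicate 3. The eighth, at 2201256, had 546, with 356 and 191. A second pair lay upstream of Alp13, an alkaline phosphatase gene on 3R, in the 8007 bp between it and the divergently transcribed lncRNA:CR45054. The summit at 10079753 had a signal of 798 (514 and 279 in replicates 1 and 3) and that at 10082679 had 776 (474 and 301), the latter 702 bp from the start of the long non-coding RNA. None of these 4 genes had a promoter peak.

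The sixth strongest peak, at 2L 9567514, lay 764 bp upstream of jp, which encodes junctophilin, a protein of membrane contact sites in muscle and neurons. Its signal was 720.5, with 388 in replicate 1 and 331 in replicate 3. The seventh, at 3R 13800577, lay 2307 bp upstream of tRNA:Phe-GAA-1-7 and 12532 bp upstream of tal-AA, part of the tarsal-less transcript encoding small peptides. Its signal was 548 in the pooled replicates, 327 in replicate 1 and 223 in replicate 3. The ninth, at 3R 21520380, lay 548 bp upstream of sp3 and beyond the end of C15, a homeobox gene, with 535 in the pooled replicates, 314 in replicate 1 and 231 in replicate 3. These 3 were among the peaks of both replicates that ranked high, each at position 13 or better of the 279 in replicate 1 and 12 or better in replicate 3.

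The tenth, at 3R 14053599, lay 3346 bp upstream of foxo, the forkhead factor of insulin signalling, with 516, 335 and 179 in the pooled list and replicates 1 and 3. The next 5 had signals from 446 to 499.9. They lay beside tara, glec, which encodes gliolectin, Sesn, which encodes sestrin, Ppa, an F-box gene, and between lncRNA:CR45641 and lncRNA:CR45643. The peak beside Ppa was the only one of these 15 with the higher value in replicate 3 (268 against 201.5). The strongest peak on 3L, at 13476964, lay 577 bp upstream of stv, a co-chaperone gene of the BAG family that had a promoter peak of its own, with a signal of 437. The stronger of the 2 distal peaks on chromosome 4, at 424811, had 167, lay 1256 bp upstream of lncRNA:CR43437, and was higher in replicate 3 (88.8) than in replicate 1 (77.2). The other lay between myo and ey, the eyeless gene, with 91.0.

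The number of distal peaks has to be read against the sequence in which one could fall. Bases outside genes and more than 500 bp from a TSS, called eligible here, made up 31.2 Mb, or 28.2% of the autosomes, and held 8.96 distal peaks per Mb, against 36.0 IDR peaks per Mb over the whole autosomes. The density was 9.83 per Mb on 2L (66 peaks), 9.48 on 3L (86) and 11.0 on 3R (84), and 5.51 on 2R (41). Chromosome 4, with 2 peaks in 0.245 Mb, is too short for a comparison. By the same rule X held 28 peaks, 5.27 per Mb, and 4.65% of its 602 IDR peaks. The exact 95% interval of that share, 3.11 to 6.65%, lies below the autosomal 7.02% but overlaps its interval of 6.25 to 7.86%. A low share was not particular to X, since on 2R it was 4.68% (exact 95% interval 3.38 to 6.30%). Median signals on the 4 large autosomal arms lay between 140.1 and 155.

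Within eligible sequence the distal peaks were concentrated towards genes. The distance from summit to nearest TSS had a median of 1752 bp, with quartiles of 888 and 4056 bp, against a median of 5950 bp over all eligible bases. From 501 to 1000 bp there were 76 peaks, or 31.6 per Mb, from 1001 to 2000 bp 72 peaks, or 18.6 per Mb, and from 2001 to 5000 bp 78 peaks, or 10.1 per Mb. Farther out the density was 4.29 per Mb from 5001 to 10000 bp (26 peaks), 4.74 per Mb from 10001 to 20000 bp (20 peaks) and 1.01 per Mb beyond 20000 bp (7 peaks). The decline thus continued well past the 500 bp limit that defined the set, with no drop between 5 and 20 kb. Signal did not fall with distance in the same way, since the median was 156 in the nearest of these classes, 111 from 5001 to 10000 bp and 160 beyond 20000 bp. The peaks just inside the limit were nearest to CG11899 (503 bp, signal 242), by, which encodes tensin (506 bp, 267), and PKD, a protein kinase gene (506 bp, 99.9). Intergenic summits just outside it were nearest to Mal-A1 (500 bp, 101.1), CG46319 (495 bp, 114) and lncRNA:CR45642 (493 bp, 123), so the limit cut through a continuous range.

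The gaps between genes that held a distal peak had a median length of 7317 bp over the 279 peaks, against 20226 bp for the gap around an eligible base. Density fell with gap length, from 40.5 peaks per Mb in gaps of at most 1000 bp (16 peaks) and 31.8 in those of 1001 to 2000 bp (27 peaks) to 5.01 per Mb in gaps of 20001 to 50000 bp (37 peaks) and 1.67 per Mb in longer ones (14 peaks). The shortest gap with a peak measured 80 bp and separated the ends of Eglp1 and Eglp2, a pair of aquaglyceroporin genes, with a signal of 92.6 and the nearest TSS at 1082 bp. The longest, 245765 bp between Pld, a phospholipase D gene, and lncRNA:CR46075, held 1 peak with a signal of 226, only 1226 bp from the start of the non-coding RNA. The 5 peaks farthest from any TSS were all on 3L, 4 in the gap between NijA and CG43245, at 32008 to 34550 bp, and 1 at 33825 bp from vvl, a POU-domain factor gene, with a signal of 100.3.

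**Figure D2:**
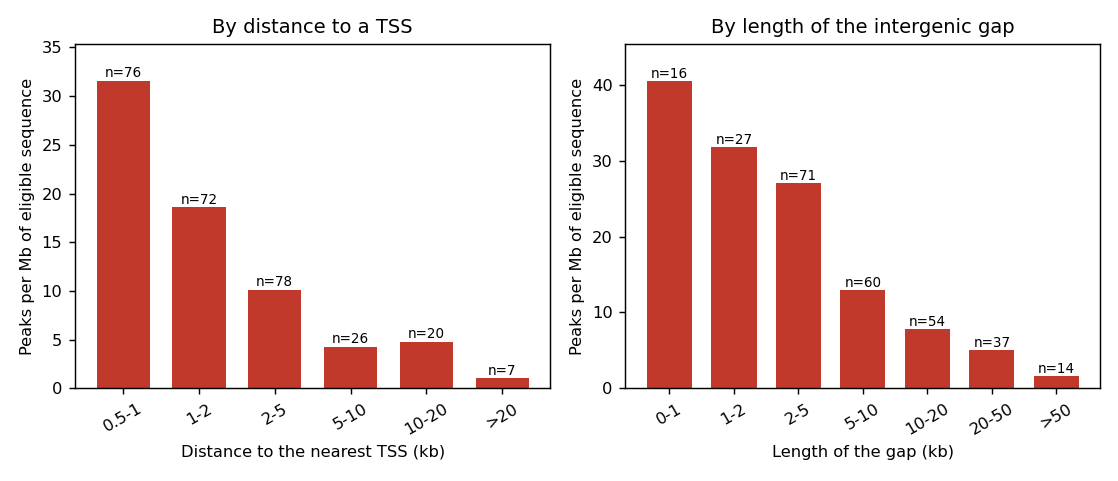
Distal peaks per Mb of eligible sequence (bars), by distance of the summit to the nearest TSS in kb (left) and by length of the gap between genes in kb (right), with the number of peaks above each bar. Density falls from 31.6 to 1.01 per Mb with distance and from 40.5 to 1.67 per Mb with gap length.

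The relative direction of the genes on either side was described as divergent (both transcribed away from the gap), convergent (both towards it) or tandem. Of the 279 peaks, 87 lay in divergent gaps (31.2%, exact 95% interval 25.8 to 37.0%), which held 20.5% of eligible bases. Tandem gaps held 123 peaks (44.1%) and 50.2% of eligible bases, and convergent gaps held 69 peaks (24.7%) and 25.3% of eligible bases. The share of divergent gaps moved with distance to the TSS. From 501 to 1000 bp the density was 41.0 per Mb in divergent gaps (33 peaks), 30.2 in tandem gaps (40 peaks) and 10.9 in convergent gaps (3 peaks). From 1001 to 2000 bp the 3 values were 20.8, 16.6 and 21.1 per Mb, and from 5001 to 10000 bp they were 2.43, 3.21 and 7.78 per Mb (3, 10 and 13 peaks). The peaks in divergent gaps therefore stood above the others in density only within the first of the 3 distance classes just given. Beyond 20000 bp divergent gaps held 6.77 per Mb, from 4 peaks that all lay between NijA and CG43245.

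Relative to the gene with the nearest TSS, 188 peaks (67.4%, exact 95% interval 61.5 to 72.9%) lay upstream of its start and 91 (32.6%) beyond its other end, against 58.9 and 41.1% of eligible bases. Upstream positions had the higher density from 501 to 1000 bp (34.4 against 20.6 per Mb) and from 1001 to 2000 bp (19.6 against 16.5 per Mb). From 5001 to 10000 bp it was the reverse, 2.80 against 5.96 per Mb, with 9 and 17 peaks. Upstream peaks had a median signal of 148 and peaks beyond the end one of 137.

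Gaps bordered by a gene with a promoter peak of its own held a larger share of the distal peaks than of eligible sequence. A gene was called bound when any of its TSSs had an IDR summit within 500 bp, which by the rule cannot be that of a distal peak. At least 1 of the neighbours on either side was bound for 124 distal peaks (44.4%, exact 95% interval 38.5 to 50.5%), while gaps with a bound neighbour held 11.5% of eligible bases. The promoter peak of a bound neighbour need not be close to the distal peak. Over all 279 distal peaks the median distance to the nearest promoter peak was 11814 bp. The gene with the nearest TSS was bound for 78 of them (28.0%). The density was 5.62 per Mb with no bound neighbour (155 peaks), 32.6 with 1 (109 peaks) and 64.6 with both (15 peaks). Because density also fell with gap length, the comparison was repeated within classes of gap length. With a bound neighbour and without, it was 75.5 and 18.5 per Mb in gaps of 1001 to 2000 bp, 64.0 and 17.3 in gaps of 2001 to 5000 bp, 28.5 and 10.0 in gaps of 5001 to 10000 bp, 34.0 and 4.27 in gaps of 10001 to 20000 bp, and 22.2 and 2.62 in gaps of 20001 to 50000 bp. In gaps of at most 1000 bp the order was the reverse, 32.3 per Mb (4 peaks) against 44.3 (12 peaks). Some distal peaks lay at the side of a promoter peak, since 13 overlapped one or had their summit 199 to 335 bp from its summit, and all 13 had a bound neighbour. Without these 13 the share with a bound neighbour was 41.7%.

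The 215 gaps with a distal peak, of 5493 gaps with eligible sequence, were bounded by 415 different genes, of which 311 were protein-coding, 98 non-coding RNA genes, 5 tRNA genes and 1 a pseudogene. Coding genes were 74.9% of these neighbours and 81.7% of the 7794 genes that border any gap with eligible sequence, and non-coding RNA genes 23.6% (exact 95% interval 19.6 to 28.0%) and 15.8%. Of the 311 coding neighbours 81 (26.0%, exact 95% interval 21.3 to 31.3%) had a promoter peak, against 22.9% of all autosomal coding genes and 19.7% of the 6364 coding genes that border any eligible gap. Counted by gene, the interval of the share includes the 22.9% of all autosomal coding genes and lies above the 19.7% of those that border any eligible gap. Gaps between 2 bound genes included those from by to mura, from bdl to Atet, an ABC transporter gene, and from hry, the pair-rule gene hairy, to lncRNA:CR44526. The median signal was 238 with 2 bound neighbours, 142 with 1 and 145 with none. The first value rests on 15 peaks in 9 gaps, 4 of them in the gap from lncRNA:CR44526 to SrpRbeta.

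**Figure D3:**
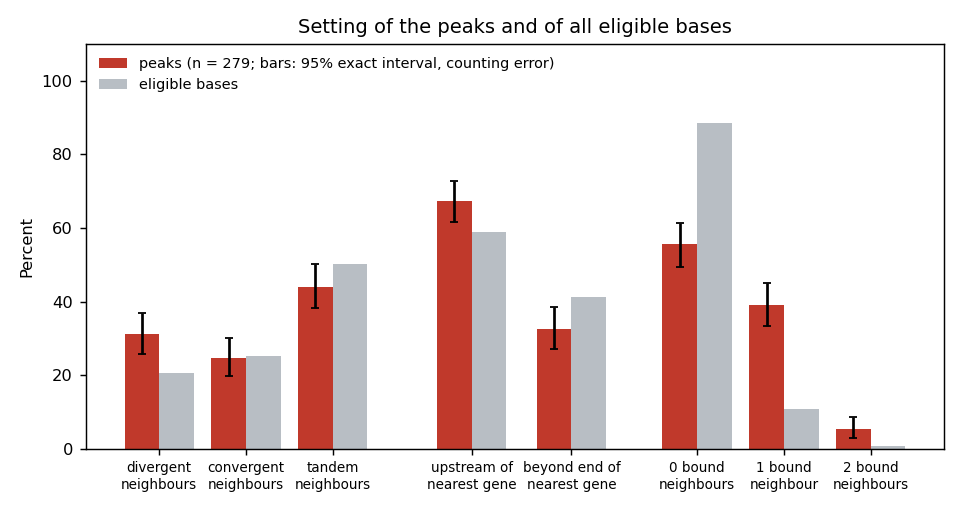
Percent of the 279 distal peaks (red, with exact 95% intervals for counting error) and of all eligible bases (grey) by direction of the neighbouring genes, by side of the gene with the nearest TSS, and by number of neighbours with a promoter peak. The largest gap between the colours is for neighbours with a promoter peak, where 55.6% of peaks and 88.5% of bases have none.

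Most distal peaks were the only one in their gap. Of the 215 gaps, 179 held 1 peak, 22 held 2 and 14 held at least 3, the latter with 56 peaks in all. The distance to the nearest other IDR summit of any kind was under 1000 bp for 68 peaks (24.4%), close to the 25.4% of the other autosomal peaks, and its median was 3500 bp, against 2974 bp for those. Some summits belonged to overlapping intervals, as 11 pairs of neighbouring distal peaks overlapped and 5 distal peaks had the same interval as another IDR peak. In addition, 9 distal peaks overlapped a promoter peak.

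The gap with the most, 8 peaks in 75047 bp on 3L, lies between NijA and CG43245, which are transcribed away from each other. NijA encodes ninjurin A, a membrane protein of cell adhesion and stress responses. The first pair, at 1386 and 7916 bp from NijA, had signals of 134 and 101.5. The next 4, at 40498 to 43040 bp, had 174, 269, 160 and 434, and the last pair, at 55968 and 59383 bp, had 175 and 150.3. The strongest of them gave 252 in replicate 1 and 187 in replicate 3, and neither gene had a promoter peak.

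On the same arm, 6 peaks lay between scyl, which encodes an inhibitor of TOR signalling related to mammalian REDD1, and lncRNA:CR44720, with signals from 92.4 to 337. This gap is part of the stretch with the most distal peaks when windows of 150 kb were compared. Within 124 kb, from 3L 11242969 to 11366814, 18 of the 24 IDR peaks were distal, in 10 gaps, 6 were promoter peaks and none lay in a gene body. The stretch held 20 genes, only 5 of them coding. Signals of the 18 were moderate, with a lowest value of 90.5, a median of 151 and a highest of 337. Their values in replicate 1 ran from 45.9 to 227 with a median of 80.2. Those in replicate 3, not scaled to replicate 1, ran from 41.0 to 122 with a median of 66.3. Overlap with strong peaks of both replicates was present for 15 of the 18, where 77.4% of all 279 distal peaks and 76.6% of all IDR peaks had it.

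Of the other 12 gaps with at least 3 peaks, that beyond tRNA:Ile-TAT-1-2 held 5, with signals from 94.1 to 414. Those from COX7AL2 to CG31668, from lncRNA:CR44526 to SrpRbeta, a subunit gene of the signal recognition particle receptor, from CG7484 to Crtc, a coactivator of CREB, and from CG5958 to CG5973 held 4 each. The remaining 7 held 3 each. They lay beside Alp13, foxo, glec and Ppa, between lncRNA:CR45641 and lncRNA:CR45643, between Hacd1 and Rh5, and between mIF2 and fkh, the fork head gene. The highest signals in these 7 ran from 117 beside fkh to 798 beside Alp13.

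**Figure D4:**
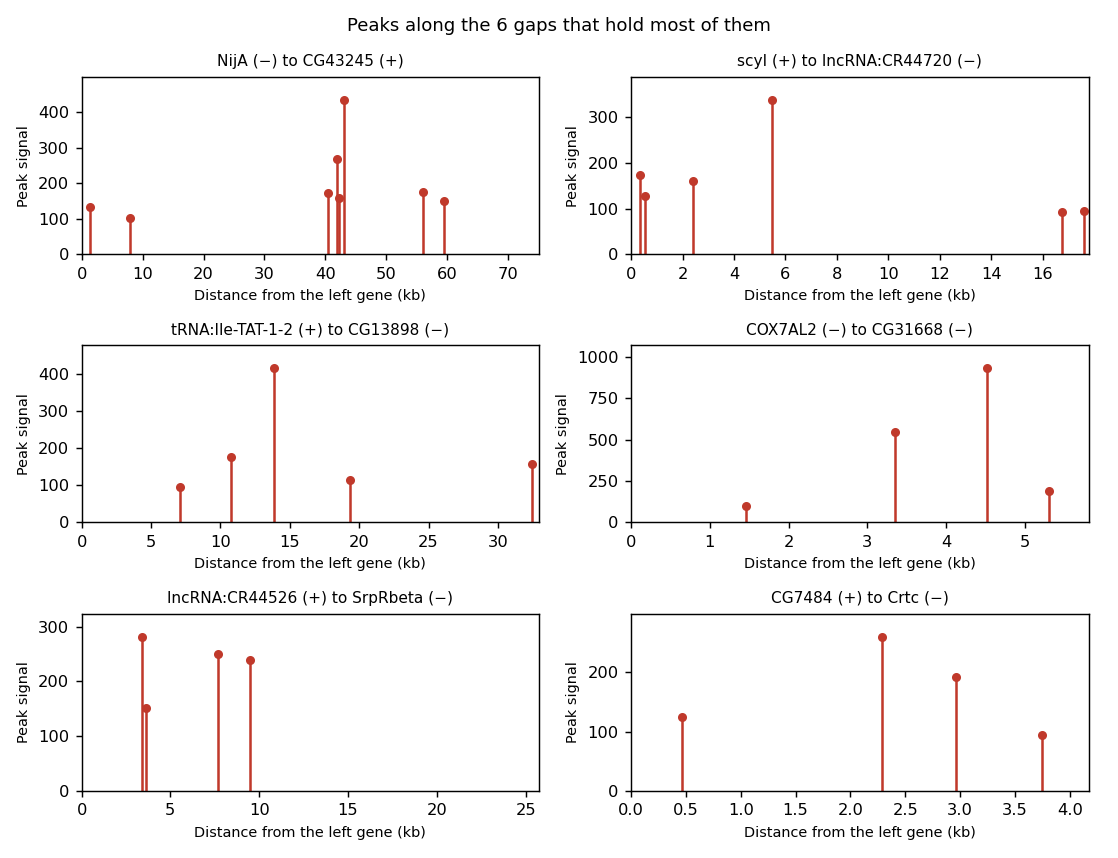
Signal (y axis, authors' units) of the distal peaks along the 6 gaps that hold most of them, by distance of the summit from the end of the left gene in kb (x axis, the whole gap), with the strand of both genes in the titles. The peaks between NijA and CG43245 group around 40 to 43 kb from NijA, with the highest at 434.

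Neighbouring genes were then grouped by function. Long non-coding RNA genes bordered 108 of the peaks (38.7%), and gaps beside such genes held 39.1% of eligible bases, so the larger share of non-coding genes counted by neighbour was not seen when counted by base. tRNA genes, whose own promoters lie inside the transcribed sequence, bordered 12 peaks (4.30%, exact 95% interval 2.24 to 7.39%), against 1.46% of eligible bases. These 12 lay beside only 5 tRNA genes, tRNA:Ile-TAT-1-2, tRNA:Ile-TAT-1-1, tRNA:Phe-GAA-1-7, tRNA:Ser-GCT-2-2 and tRNA:Gln-CTG-4-1, at 1172 bp or more from each, so they are neither at the tRNA genes nor independent of each other. Genes of chromatin and insulator factors bordered 5 peaks (1.79%, exact 95% interval 0.584 to 4.13%) against 0.225% of eligible bases. They came from 3 genes on 2R, Su(z)2 and Psc, adjacent Polycomb group genes, and psq, which encodes pipsqueak, a GAGA-binding protein. Apart from the peak of 945 described above, the signals of these 5 ran from 97.4 to 161. Su(z)2, Psc and psq each had a promoter peak.

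Factors of embryonic patterning and neural identity bordered 13 peaks, 4.66%, close to their 4.82% of eligible bases. The strongest lay beside C15 (535), Sox15, an HMG-box gene (206), and vvl (177), and 3 lay between mIF2 and fkh. Neurotransmitter receptor and ion channel genes bordered 8 peaks (2.87% against 1.79%). They included the sodium channel relatives ppk7 (387), ppk11 and ppk12, Ih, Irk1, the glutamate receptor gene KaiR1D, and Rdl, a GABA receptor gene. Cell adhesion and axon guidance genes bordered 6 (2.15% against 6.40%), the strongest beside dpr20 (286) and dpr17 (237). The exact 95% interval of that share, 0.793 to 4.62%, lies below 6.40%. Gap length, with which density fell, was not matched for this or the other groups, and its part in the shares was not tested.

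Each other group bordered 5 peaks or fewer. These were antisense RNA genes (5 peaks, 1.79% against 0.993% of eligible bases), chemoreceptors and odorant binding proteins (4, 1.43% against 2.91%), ribosomal protein genes (3, 1.08% against 1.46%) and microRNA genes (3, 1.08% against 0.636%). Cytochrome P450 genes bordered 2 (0.717% against 0.364%), cuticle protein genes 1 (0.358% against 0.960%) and seminal fluid protein genes 1 (0.358% against 0.284%). Genes of the circadian clock, snoRNAs, spliceosomal snRNAs, antimicrobial peptides, Jonah and trypsin proteases and heat shock proteins bordered 0 of 279 peaks, which allows a share of up to 1.08% (3 counts of 279), and each of these groups held at most 0.173% of eligible bases. Germline and testis regulators bordered 3 peaks (1.08% against 1.28%), beside tHMG2, chinmo and Mst87F, a sperm tail protein gene. The peak beside tHMG2, printed above, lay 1615 bp from the start of tHMG2 in the 3468 bp before Octbeta1R, an octopamine receptor gene, with 244 in the pooled replicates, 141 in replicate 1 and 100.2 in replicate 3. The gene of the tagged protein, tHMG1, bordered none of the peaks, and tHMG2 had no promoter peak.

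The summits of distal peaks were low in G+C, like those of the other peaks. Over the summit and 100 bases on either side the G+C content averaged 37.4% ± 8.07 (SD over 279 peaks), against 37.4% at promoter peaks, 37.8% at gene body peaks and 40.8% over 151714 windows of eligible sequence. In steps of 20 bp the mean had its lowest value, 35.9% ± 0.863 (SE, n = 279), 30 bp from the summit, and was 42.1% at 490 bp on the left side. The lowest means were 36.4% at promoter peaks and 36.0% at gene body peaks, so the 3 kinds of peak reached a similar level at the summit, although the means at 490 bp were 45.2 and 40.6% for the other two. Soft-masked repeat bases made up 20.6% of the distal windows, 21.4% at promoter peaks, 20.3% at gene body peaks and 26.7% over eligible windows. A single summit lay in an annotated transposon, an INE-1 element upstream of IP3K1 with a signal of 148 (0.358%), while annotated transposons covered 10.9% of eligible bases. The read filters are not given, so whether peaks could be called equally well in such repeated sequence is unknown.

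**Figure D5:**
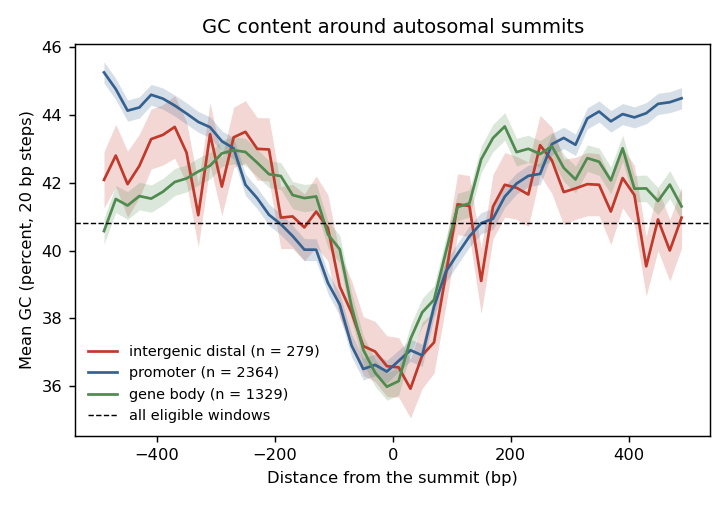
Mean G+C content in steps of 20 bp (y axis, percent, bands are 1 SE) by distance from the summit (x axis, bp) for autosomal distal, promoter and gene body peaks, with the mean of eligible windows dashed at 40.8%. The 3 lines meet near 36 to 37% at the summit, and that of the distal peaks returns to about the dashed line or above within 250 bp.

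Motifs were counted in the same windows on both strands. AACAAT was present in 83 distal windows (29.7%, exact 95% interval 24.4 to 35.5%), against 24.2% of promoter peaks, 25.7% of gene body peaks and 21.2% of eligible windows, and AACAAAG, the TCF site, in 9.68, 6.51, 8.88 and 5.86%. TATAAA was present in 32.3% of distal and 35.5% of promoter windows and 23.4% of eligible windows. Motifs rich in A and T depend on base composition, in which peaks and eligible windows differed, and its part in these shares was not tested. AAAAAAAA was present in 12.2% of distal and 10.1% of eligible windows, and ATATATAT in 3.58 and 3.04%.

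Core promoter motifs had smaller shares in distal and in gene body windows than in promoter windows. GGTCACAC, the M1BP site, was in 0 of 279 distal windows, which allows a share of up to 1.08% (3 counts of 279), against 3.34% of promoter peaks, 0.226% of gene body peaks and 0.265% of eligible windows. The DRE was in 3 distal windows (1.08%, exact 95% interval 0.222 to 3.11%), beside Alp13, IP3K1 and CG13577. Its share was 5.12% at promoter peaks, 0.226% at gene body peaks and 0.423% in eligible windows. CAGCTG, an E-box, was in 6.09% of distal, 11.0% of promoter, 7.45% of gene body and 6.98% of eligible windows. Repeats differed less by kind of peak: GAGAGAG was in 4.66% of distal, 6.39% of promoter and 2.15% of eligible windows, and CACACACA in 6.45, 4.91 and 3.78%.

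The core AGGTGGCG of the CTCF site was in 5 distal windows (1.79%, exact 95% interval 0.584 to 4.13%), against 0.677% of promoter peaks, 0.527% of gene body peaks and 0.326% of eligible windows. These 5 were the peak near jp (720.5) and those beside mir-4981 (260, a microRNA gene), cv-c (220), osp (122) and IntS3 (113, an Integrator subunit gene). GCCATTT was in 4.66% of distal and 6.28% of eligible windows, CAGGTAG, the Zelda site, in 1.08 and 0.892%, and TGCATAC, a core of the Su(Hw) site, in 3.58 and 2.87%.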

How the data were processed

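ChIP-seq of GFP-tagged tHMG1 was analysed from peak lists of 2 biological replicates, of the replicates pooled, and of the peaks that passed IDR, all on build dm6. Chromatin was sonicated, per the labels, to a size range of 200 to 800, and a separate experiment is named as a possible control and was not used here. Which program aligned the reads or called the peaks, with which filters and IDR cutoff, is not given in the sources used here. The authors deposited a signal for each peak, the caller's own enrichment value, which was not scaled between lists and serves only within a list. The 4574 IDR rows were the 4574 strongest of the 30000 pooled rows, so peaks were called on pooled replicates, and the replicates are not independent checks of them. Read depth is unknown, so intervals cover the counting of peaks only. They treat peaks as independent, although 100 of the 279 shared a gap with another.

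Gene models, 18358 once transposable elements were left out, came from Ensembl release 115. The RefSeq copy of the release 6 assembly supplied sequence. A summit was classed by its own base. Neighbours were the genes bounding the gap between merged gene bodies, and all eligible autosomal bases, or all eligible windows of the summit's length, gave the background. Replicate values were those of the strongest peak of that replicate which overlapped by at least 1 bp. No test of chance was made, because peaks are not replicates of a condition. The assignment was checked on simulated annotations, where 0 of 4000 positions were placed wrongly. The 20 gene lists and 14 motifs, the members and the rule for named genes (neighbours of the 15 strongest peaks, the strongest of each arm, the farthest, those in the longest gaps and at the limit, gaps with 3 or more peaks, and up to 3 peaks per list) were chosen with earlier results of these data known. Genes named as carrying a motif, as extremes of the replicate ratio or of gap length, or as having bound neighbours were chosen after their values were seen. Alternatives covered the TSS window, gene sets, summit definition, peak lists and sequence windows, and RefSeq genes and leaving out peaks beside a promoter peak were added after seeing the data. Python 3.11.15, numpy 2.4.6, pandas 2.3.3 and scipy 1.17.1 were used.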

Additional observations from a re-analysis of the deposited data

How the results depend on the processing

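With a TSS window of 250 bp there were 439 distal peaks, with a signal ratio (median over that of all autosomal peaks, 0.997 as reported) of 1.02, a median TSS distance of 823 bp, a bound neighbour for 34.9% and 36.6% G+C. With a window of 1000 bp the ratio was 0.974, the distance 2978 bp and the bound share 53.2%. Both windows moved the distal share of autosomal peaks (7.02%), to 11.1 and 5.11%, and the convergent share (24.7%), to 15.9 and 32.5%. With protein-coding genes alone the distance was 2978 bp, the bound share 51.7%, G+C 38.1% and the distal share 9.64%. In the stronger 50% of the IDR peaks there were 139 distal peaks and a bound share of 22.3%, with fewer summits available to call a gene bound (6.01% of eligible bases). All peaks of the pooled list gave 3185 distal peaks, a ratio of 0.825, a distance of 2575 bp, a bound share of 76.5%, G+C of 41.5% and a distal share of 12.5%. The share of eligible bases beside a bound gene was 11.5% as reported, 9.44 and 12.3% with the 2 windows, 15.5% with coding genes and 53.7% with all pooled peaks, where the excess over bases was 1.42 times, against 3.87 times as reported. With whole intervals outside genes the ratio was 1.02, and G+C was 36.5% over 50 bases and 39.8% over 250 bases on either side of the summit.

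As many of the strongest peaks of 1 replicate alone gave 284 to 285 distal peaks, a signal ratio of 0.930 to 0.955, a TSS distance of 1663 to 1778 bp, a bound share of 43.0 to 47.4% and G+C of 37.5 to 38.5%. A further 60 values of these results, with the share of divergent neighbours under every alternative among them, stayed within the exact 95% interval of a share, within the spread between replicates for a median or mean, or within 1.5 times for the number of peaks. The divergent share ran from 26.6% with the window of 1000 bp to 34.6% with that of 250 bp. Of the secondary values (distal share, gap length, tandem and convergent shares, masked bases, repeats and replicate support), 93 stayed within such limits and 29 moved. Leaving out the 13 peaks beside a promoter peak gave a TSS distance of 1913 bp and a bound share of 41.7%, and this and RefSeq genes were added once the data had been seen. RefSeq genes gave 279 peaks, all of them shared with the reported set. The cause of the shifts was not tested, beyond the changes of rule that the alternatives make. No paired analysis was possible because there is a single group. Distances and densities depend on which TSSs are annotated. Unknown depth limits the reading of weak peaks, and no control track was used here.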

Other observations

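Further down the pooled list, which includes background, the share of distal summits was larger. It was 7.02% of the 3972 autosomal peaks that passed IDR, 9.31% (exact 95% interval 8.49 to 10.2%) of autosomal peaks at ranks 4575 to 10000, 12.6% at ranks 10001 to 20000 and 16.9% at ranks 20001 to 30000. The promoter share went the other way, from 59.5 to 46.3, 33.2 and 22.4%. The distal summits of the 4 rank classes lay at median distances of 1752, 2109, 2518 and 2943 bp from a TSS, and their mean G+C content was 37.4, 40.0, 41.5 and 42.9%. The G+C content at the weakest ranks was thus above the 40.8% of all eligible windows. Summits in annotated transposons stayed few at every rank, at 0.358, 0.230, 0.284 and 0.777%, against 10.9% of eligible bases. How readily a summit could be called in such repeated sequence was not tested, as the read filters are not given.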
